A study of Rattus norvegicus with 24 samples.

Results

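The left ventricles of Dahl salt-sensitive rats on a high salt diet were compared between arrays labelled 6 weeks and arrays labelled 3 weeks. Members were chosen by array title: the 3 arrays titled high salt at 6 weeks were set against the 3 titled high salt at 3 weeks, 6 arrays of 24 deposited columns. All rats were of the inbred Dahl salt-sensitive strain, whose blood pressure climbs when it is fed salt; they came at an age of 5 weeks and were treated from an age of 6 weeks. The high salt rats ate chow with 6% NaCl, a model of pathologic hypertrophy. The series also holds high salt hearts at 15 weeks, rats exercised on a treadmill for 6 weeks (at full load 90 minutes a day at 16 m/min, uphill by 5 degrees) at 3 and 6 weeks, and sedentary age-matched controls on normal chow at 3, 6 and 15 weeks. The labels do not say from when the weeks were counted, at what time of day hearts were taken, or whether each array came from its own animal, so p-values measure the spread between arrays, which may be technical. Total RNA of the whole left ventricle was hybridised to an Affymetrix rat array, on which each transcript is read by 1 or more probe sets, groups of short probes summed into 1 intensity.

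Salt loading raises the pressure against which the left ventricle pumps. Its muscle cells enlarge and return in part to a fetal programme, with more natriuretic peptide, beta-myosin heavy chain and skeletal alpha-actin, and over time fibroblasts can lay down collagen. The heart also carries its own circadian clock, in which Clock and Bmal1 switch on their own repressors over each day, so transcripts of that loop differ widely with the hour at which tissue is taken.

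The 6 arrays were close to each other, though the 6-week arrays were no more alike among themselves than they were to the 3-week arrays. Pearson's r of log2 intensities over the tested probe sets was 0.956 to 0.963 within the 6-week arrays, 0.976 to 0.979 within the 3-week arrays and 0.960 to 0.970 between them, a description with no test. RNA integrity was read from control probe sets at the 3' and 5' ends of long transcripts, where a higher ratio marks broken RNA. For GAPDH the ratio was 1.17, 1.04 and 1.10 at 6 weeks and 0.994, 1.07 and 1.06 at 3 weeks. For beta-actin it was 1.60, 1.21 and 1.62 at 6 weeks and 1.06, 1.05 and 1.04 at 3 weeks, which do not overlap. Hexokinase went the other way, at 2.19, 1.48 and 1.71 at 6 weeks and 2.01, 2.04 and 2.17 at 3 weeks, with overlap. In the 6-week controls the GAPDH ratio was 1.58, 2.48 and 3.99. The labelled tissue was borne out by its markers: 12 of 15 ventricular myocyte genes were tested, and their summed intensity was 282910 to 386300 at 6 weeks and 223200 to 309700 at 3 weeks, with none at 0.

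Few transcripts passed the test between high salt hearts at 6 and at 3 weeks, and all of those were lower at 6 weeks. They were 2 genes of the circadian clock, Nr1d1 and Dbp, the lipoxygenase Alox15 and the alpha-globin Hba-a3, with log2 fold changes of -1.34 to -3.29. Of 6555 probe sets, 5 had an adjusted p under 0.05 in limma, or 0.0763%; 0 were higher and 5 lower. At an unadjusted p under 0.05 there were 303 probe sets, or 4.62%, of which 129 (1.97%) were higher and 174 (2.65%) lower. For 776 probe sets (11.8%) the 3 and 3 arrays did not overlap, 375 higher (5.72%) and 401 lower (6.12%). The median log2 change over all tested probe sets was -0.0056. The same fit called 209 probe sets between high salt hearts at 15 and at 6 weeks, or 3.19%, and 330 between 15 and 3 weeks, or 5.03%. The beta-actin ratio also separates the 2 weeks, and with it as a covariate, an alternative added after the data were seen, 2 probe sets passed. They were that of Alox15 and 1 of Rfc4, a loader of the replication clamp (-1.73, limma adjusted p = 0.0168), while the other called probe sets kept changes of similar size without passing. Nr1d1 was at -1.64 (adjusted p = 0.0526), Dbp at -3.60 and -2.49 (0.0794 and 0.0662) and Hba-a3 at -1.21 (0.275). Leaving out any 1 of the 6 arrays kept the calls of Alox15 and Nr1d1. Hba-a3 passed in 1 of those 6 fits, without the first 6-week array, and had an adjusted p of up to 0.151 in the others; Dbp passed on J03179_g_at in 1 (up to 0.201 in the others) and on J03179_at in 3 (up to 0.0812).

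**Figure D1:**
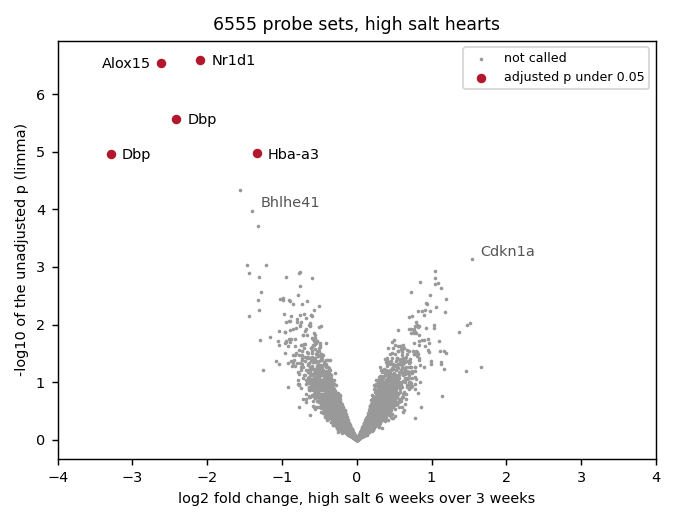
Log2 fold change of high salt hearts at 6 weeks over 3 weeks (x axis, on the log2(intensity + 40) scale) against -log10 of the unadjusted limma p (y axis) for 6555 probe sets. The 5 called probe sets, in red, all lie to the left; Bhlhe41 and Cdkn1a are named in grey and were not called.

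Dbp had the largest change of all called genes, and start sites of the clock genes are shown because these genes regulate each other through short DNA motifs. In background, Clock and Bmal1 bind the E-box CACGTG, Nr1d1 and Nr1d2 bind elements holding AGGTCA and repress Bmal1, and Dbp, Tef and Hlf bind D-boxes such as TTATGTAA and TTACGTAA. Windows of 250 bases before to 50 after the start were taken from RefSeq on build GRCr8, read 5' to 3' on the gene's strand; 8 of 10 tested clock genes had one. The 4 shown are the window of Dbp at chr1:105312006-105312305 on the plus strand, 1 of the starts of Nr1d1 at chr10:84229405-84229704 on the minus strand, Bhlhe41 at chr4:180569306-180569605 on the minus strand and Bmal1 at chr1:176766078-176766377 on the plus strand. Capitals mark a motif match on either strand.
Dbp: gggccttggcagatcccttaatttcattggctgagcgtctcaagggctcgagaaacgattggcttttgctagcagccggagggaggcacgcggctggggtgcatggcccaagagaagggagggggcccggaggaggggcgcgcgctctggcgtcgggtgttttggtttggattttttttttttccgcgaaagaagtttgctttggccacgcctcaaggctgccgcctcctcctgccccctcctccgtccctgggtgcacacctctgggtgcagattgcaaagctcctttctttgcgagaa
Nr1d1: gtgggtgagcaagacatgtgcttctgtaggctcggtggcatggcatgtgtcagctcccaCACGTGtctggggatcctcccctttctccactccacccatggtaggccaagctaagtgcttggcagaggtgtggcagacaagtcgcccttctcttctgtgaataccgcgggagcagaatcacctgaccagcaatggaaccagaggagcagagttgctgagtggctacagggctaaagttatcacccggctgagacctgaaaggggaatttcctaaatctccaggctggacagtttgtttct
Bhlhe41: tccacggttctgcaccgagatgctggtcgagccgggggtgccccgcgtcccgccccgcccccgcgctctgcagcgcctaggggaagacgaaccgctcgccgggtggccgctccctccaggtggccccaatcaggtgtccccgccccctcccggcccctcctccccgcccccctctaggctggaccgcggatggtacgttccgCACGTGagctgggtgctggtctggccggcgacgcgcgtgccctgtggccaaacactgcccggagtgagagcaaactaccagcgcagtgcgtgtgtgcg
Bmal1: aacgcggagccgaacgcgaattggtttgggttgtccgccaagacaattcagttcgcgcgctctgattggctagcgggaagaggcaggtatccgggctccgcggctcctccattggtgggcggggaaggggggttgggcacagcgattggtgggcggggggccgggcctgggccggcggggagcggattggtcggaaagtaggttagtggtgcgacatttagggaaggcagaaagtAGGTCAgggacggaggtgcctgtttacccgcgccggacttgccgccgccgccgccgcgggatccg
An E-box stood 191 bases before the Nr1d1 start and 48 before that of Bhlhe41, and AGGTCA stood 15 bases before that of Bmal1. CACGTG was found in the windows of 4 of the 8 genes with a window, the other two being Bhlhe40 and Tef, and in 6.42% of 33469 rat windows of the same length. AGGTCA was found for Nr1d2 and Bmal1, against 16.2% of windows, and TTATGTAA for Per2, against 0.893%. The window of Dbp held none of the 4 motifs searched, TTACGTAA being in 0.12% of all windows. The second start of Nr1d1, with its window at chr10:84231763-84232062, held none of the motifs, and the shares of all windows are per window, not per gene. A match is a run of letters, not a measured binding site.

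Nr1d1 encodes REV-ERB alpha, the repressor that closes the loop by silencing Bmal1. On its probe set M25804_g_at the intensity was 304, 321 and 186 at 6 weeks, against 1239.7, 1287 and 1243 at 3 weeks. The 3-week arrays were nearly equal, and every 6-week array lay far below them. The log2 fold change was -2.09 ± 0.27 (SE; limma, adjusted p = 0.000924). The other probe set, M25804_at, read 452, 183 and 226 at 6 weeks against 958, 697 and 993 at 3 weeks, also without overlap, with -1.57 ± 0.30 and an adjusted p of 0.0506 in limma, just outside the threshold. In high salt hearts at 15 weeks M25804_g_at was at 463, 431 and 565, again below all 3-week arrays (-1.31 over 3 weeks; limma adjusted p = 0.006).

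Dbp encodes a transcription factor of the PAR bZIP family, an output gene that Clock and Bmal1 drive directly. Both of its probe sets fell. J03179_g_at was at 545, 39.5 and 25.5 at 6 weeks and at 1501, 1566 and 1117 at 3 weeks (-3.29 ± 0.56, limma adjusted p = 0.0142). J03179_at was at 180, 24.5 and 52.5 at 6 weeks and at 532, 739.8 and 405 at 3 weeks (-2.41 ± 0.37, limma adjusted p = 0.00582). The groups did not overlap on either probe set, but the first 6-week array kept a much higher level than the other two. At 15 weeks the J03179_g_at levels were 295, 46.8 and 144, so low and unequal levels were seen there too.

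Bhlhe41, known as DEC2, is a basic helix-loop-helix repressor that competes at E-boxes. Its intensity was 268, 145 and 258 at 6 weeks and 585, 802 and 558 at 3 weeks. The arrays did not overlap, yet the change of -1.40 ± 0.29 missed the threshold (limma, adjusted p = 0.0984), which it passed in 4 of 22 alternatives. Nr1d2, the paralogue of Nr1d1, was at 449, 168 and 105 at 6 weeks and 538, 649 and 421 at 3 weeks (-1.21 ± 0.31, limma adjusted p = 0.541), where the first 6-week array fell inside the 3-week range. Bmal1, the activator, ran in the opposite direction in 2 arrays of 3, at 26.3, 231 and 442 at 6 weeks against 53.1, 26.5 and 26.1 at 3 weeks (1.47 ± 0.52, limma adjusted p = 0.864).

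The clock list held 20 genes, of which 10 were on the array and all 10 were tested. At their brightest probe sets 2 were called, both lower, beside 0.0784% of the 3828 genes tested. The 3 genes whose arrays did not overlap were all lower, beside 6.3% of all genes, and the list's median log2 change was -0.40 beside -0.0050. The remaining members did not pass: Bhlhe40 was at -0.49 ± 0.25, Hlf at -0.31 ± 0.38, Tef at -0.29 ± 0.22, the kinase gene Csnk1d at 0.11 ± 0.25 and Per2, a repressor of the core loop, at 0.05 ± 0.25. Per2 was at 331, 249 and 258 at 6 weeks and 282, 325 and 204 at 3 weeks, so the groups were interleaved.

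The first 6-week array stood apart from its group on several of these genes: of the 3 it had the highest Dbp and Nr1d2 and the lowest Bmal1. Without it, 10 probe sets passed in place of 5, and they included Nr1d2 at -1.71 (limma, adjusted p = 0.00237) and Bmal1 at 2.29 (adjusted p = 0.0231). Its title is one of those that carry an unexplained second number. Dbp held at least 1 called probe set without it, with J03179_g_at at -4.30 (adjusted p = 4.92e-06). Time of day is not in the labels and its part in these values was not tested.

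**Figure D2:**
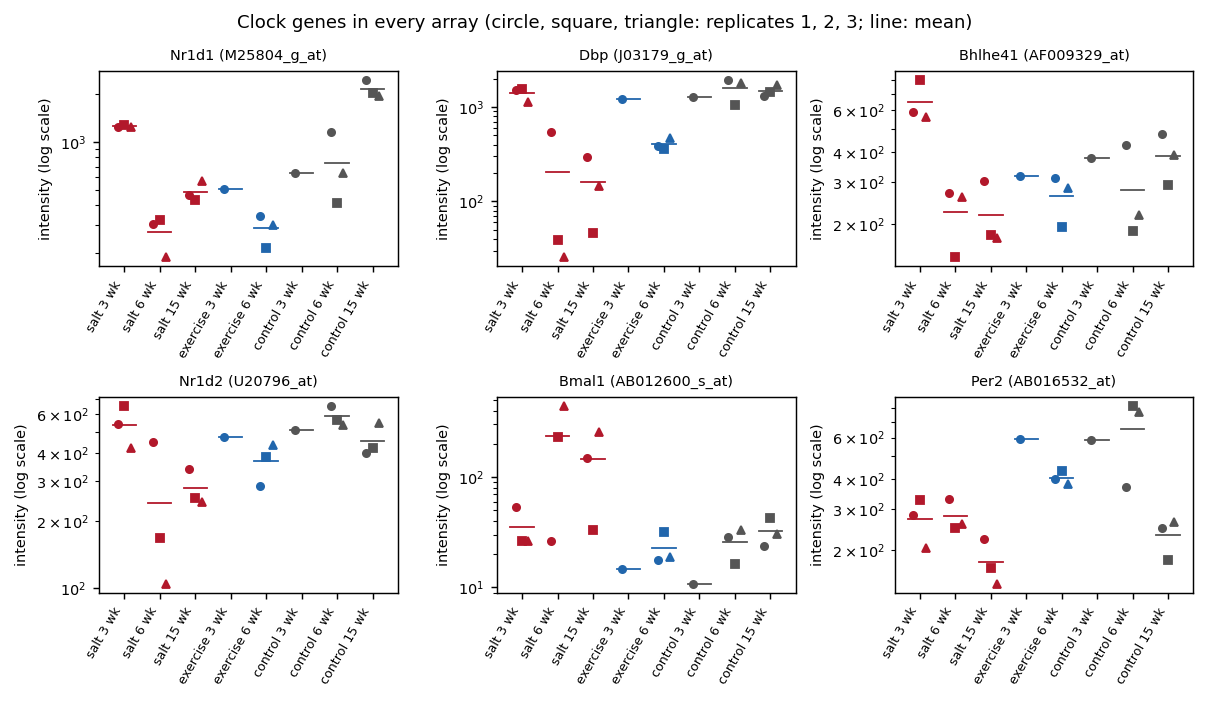
Intensity (log axis) of 6 clock genes in each of the 20 arrays used, with high salt in red, exercise in blue and control in grey; symbols give the replicate number and lines the group mean. Nr1d1 and Dbp are lower in all 3 high salt arrays at 6 weeks than at 3 weeks, Bmal1 is high in 2 of 3, and Per2 overlaps.

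In the other groups these genes also varied. Nr1d1 (M25804_g_at) was at 341, 215 and 301 in exercised hearts at 6 weeks and at 502 in the single exercised array at 3 weeks. In controls it was at 1159, 412 and 641 at 6 weeks and 639.6 in the single array at 3 weeks, and at 15 weeks it was at 2485, 2044 and 1956. Dbp (J03179_g_at) was at 384, 359.6 and 469 in exercised hearts at 6 weeks and 1224 at 3 weeks, against 1951, 1048 and 1780.1 in controls at 6 weeks and 1277 at 3 weeks. Exercised hearts at 6 weeks thus also lay below their 3-week array on both genes, while the controls at 6 weeks lay on both sides of theirs. The high salt change minus the exercise change was -1.34 ± 0.47 for Nr1d1 and -1.77 ± 0.98 for Dbp, and minus the control change it was -2.17 ± 0.47 for Nr1d1 and -3.55 ± 0.98 for Dbp. None of these 4 differences passed in limma, with adjusted p of 0.999 and 0.999 against exercise and 0.205 and 0.387 against control. Each rests on 1 exercised or control array at 3 weeks, because 2 arrays were deposited under both labels and were left out.

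Alox15 encodes a lipoxygenase that oxidises arachidonic and linoleic acid, and in rodents it is expressed in eosinophils, macrophages and other cells. Probe set L06040_s_at fell to 18.6, 30.7 and 21.4 at 6 weeks, against 298, 492 and 292 at 3 weeks (-2.62 ± 0.35, limma adjusted p = 0.000924). All 6-week arrays were dim, no 3-week array was below 292, and exercised and control hearts lay between, from 38.6 to 225. At 15 weeks the same probe set was at 9032, 6029 and 6758, an increase of 6.83 over 6 weeks (limma, adjusted p = 6.15e-11). The probe set thus took its lowest values of any group at 6 weeks and its highest at 15 weeks.

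The brighter probe set of Alox15, S69383_at, was lower by a smaller amount and was not called. It read 384, 245 and 341 at 6 weeks and 447, 626 and 348 at 3 weeks, which overlap slightly (-0.48 ± 0.21, 95% interval -0.94 to -0.025, limma adjusted p = 1). At 15 weeks it was at 7458, 7259.7 and 6272. Both probe sets therefore had a high level at 15 weeks and a negative change at 6 weeks, of unequal size; which size is that of the transcript was not tested. Of the other eicosanoid genes, Ptgis, the prostacyclin synthase, was at 850.2, 699.5 and 427 at 6 weeks and 951, 1038 and 889.6 at 3 weeks, without overlap (-0.56 ± 0.23, limma adjusted p = 1). The tested probe sets of Ptgs1, Ptgds, Lta4h and Alox5ap all overlapped between the weeks, with changes of -0.42 to 0.11.

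Hba-a3 encodes an alpha-globin chain of haemoglobin, and in ventricle RNA it reads mainly red blood cells. It fell to 447, 478 and 418 at 6 weeks, against 1307, 1124 and 1147 at 3 weeks (-1.34 ± 0.23, limma adjusted p = 0.0142). Within each week the arrays were close, and the groups were far apart. At 15 weeks it was at 1857, 1632 and 2687, or 2.08 above 6 weeks (limma, adjusted p = 1.62e-05). Exercised hearts were at 462, 925 and 734 at 6 weeks and 508 at 3 weeks, and controls at 863, 700.1 and 1043 at 6 weeks and 538 at 3 weeks, so the 3-week high salt arrays lay above these. Controls at 15 weeks were at 917, 1120.1 and 1062.5, the highest of them only just below the lowest 3-week high salt array.

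The red blood cell list shared the direction without passing. All 5 tested genes had negative log2 changes and 0 were called by limma, with 3 lower at an unadjusted p under 0.05, beside 2.77% of all genes; 2 lay lower without overlap, beside 6.3%, and the median was -0.47. Its summed intensity was 22495 to 28805 at 6 weeks and 34070 to 40328 at 3 weeks, with no marker at 0. Hbb-b1, a beta-globin, was at 7549, 9993 and 8348 at 6 weeks and 16615, 14072 and 13136 at 3 weeks (-0.76 ± 0.20, limma adjusted p = 0.541), and Hbb was at -0.47 ± 0.17. Globin genes are near-identical copies, so their probe sets may share signal. Alas2, which starts haem synthesis in red cell precursors, was at 940.4, 1343 and 604 at 6 weeks and 1077, 1586 and 1369 at 3 weeks (-0.52 ± 0.25), with overlap. Slc4a1, the anion exchanger of the red cell membrane, was level at -0.05 ± 0.20. In bulk ventricle fewer cells of a type and less RNA per cell cannot be told apart.

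**Figure D3:**
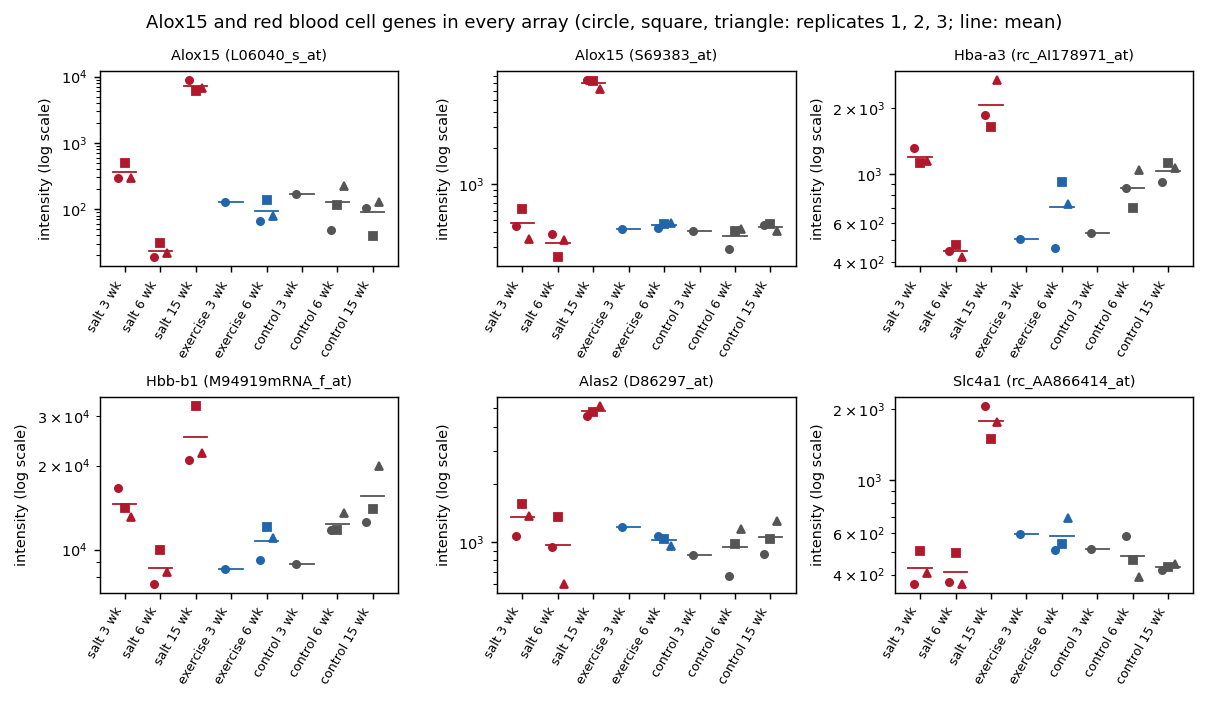
Intensity (log axis) of both Alox15 probe sets and of 4 red blood cell genes in each of the 20 arrays used, drawn as for the clock genes. L06040_s_at and Hba-a3 do not overlap between high salt hearts at 6 and 3 weeks, S69383_at and Slc4a1 do, and all 6 panels have their highest values in high salt hearts at 15 weeks.

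The genes by which hypertrophy is usually read gave no call between the 2 times. Nppa encodes atrial natriuretic peptide. At 3 weeks it already lay above the single control array, at 2806, and the single exercised array, at 6819. In high salt hearts it was at 9981, 9800.1 and 10216 at 6 weeks against 11500.5, 12399 and 11122 at 3 weeks. The 3-week arrays were a little above the 6-week arrays without overlap, and the change of -0.22 ± 0.30 (95% interval -0.88 to 0.43) is small beside the difference of 1.23 between 15 and 6 weeks. Its 4 tested probe sets disagreed in sign, 2 positive and 2 negative. Nppb, B-type natriuretic peptide, was at 5792, 7294 and 7911 at 6 weeks and 4992, 4392 and 5839 at 3 weeks, overlapping slightly (0.46 ± 0.28, interval -0.14 to 1.06).

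Acta1, skeletal alpha-actin, was at 16213, 16268 and 16661 at 6 weeks and 16967, 14912 and 15778 at 3 weeks (0.05 ± 0.18, interval -0.35 to 0.44). Myh6, the fast alpha-myosin heavy chain of the adult rodent ventricle, was at 0.31 ± 0.19. Atp2a2, the calcium pump SERCA2, was at 0.41 ± 0.20, and of its 4 tested probe sets 2 were positive and 2 negative. Myh7, the slow beta-myosin heavy chain, was higher in every 6-week array on both of its probe sets. On X15939_i_at it was at 26115, 27264 and 20438 at 6 weeks and 14842, 11897 and 9283 at 3 weeks (1.05 ± 0.29, limma adjusted p = 0.541), and on the brighter X15939_f_at the change was 0.55 ± 0.23. On X15939_f_at the lowest 6-week array, at 40945, was only just above the highest 3-week array, at 40791. From 3 to 6 weeks X15939_i_at also changed by 1.13 in controls and 0.47 in exercised hearts, each with 1 array at 3 weeks. X15939_f_at changed by 0.26 in controls and 0.25 in exercised hearts. Ankrd1, a stretch-responsive protein of the sarcomere, was at 26319, 21622 and 19675 at 6 weeks and 16115, 14843 and 14720 at 3 weeks, without overlap (0.56 ± 0.20, adjusted p = 0.873). Among the 17 natriuretic and fetal genes, 2 lay higher and 2 lower without overlap, beside 5.49% and 6.3% of all genes, 0 were called by limma (3 higher at an unadjusted p under 0.05, beside 1.91%), and the median was 0.13.

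Genes with the smallest p among those higher at 6 weeks also missed the threshold. Cdkn1a, the cell cycle inhibitor p21, was at 384, 537 and 868 at 6 weeks and 101, 278 and 163 at 3 weeks (1.54 ± 0.38, limma adjusted p = 0.54), and both of its probe sets had positive changes. At 15 weeks it was at 431, 801 and 843, which was above 3 weeks by 1.75 (limma, adjusted p = 0.0085). Txnip, an inhibitor of thioredoxin and of glucose uptake, was at 3855, 2903 and 4915 at 6 weeks and 1980.2, 1559.8 and 1937 at 3 weeks (1.05 ± 0.28). Aqp1, the water channel of capillary endothelium and red cells, was at 6377, 6228 and 4082 at 6 weeks and 2665, 3236 and 2419 at 3 weeks (0.98 ± 0.29). For each of these genes the groups did not overlap. The others were Pllp, a myelin-associated membrane protein, at 1.09 ± 0.30, Cyp2e1, a cytochrome P450, at 1.04 ± 0.29, Myl1, a fast-muscle myosin light chain, at 0.72 ± 0.21, and Odf4, named for sperm tail fibres, at 1.20 ± 0.36. Pllp and Odf4 were dim, at most 162 in these 6 arrays. Controls changed over these weeks by -0.016 for Cdkn1a, 0.20 for Txnip, 0.78 for Aqp1 and 0.85 for Cyp2e1. For Pllp, Myl1 and Odf4 they changed by -1.32, 0.46 and -0.14. Exercised hearts changed by -0.067, 0.72, -0.14, 0.53, 0.20, -0.38 and 0.31 in the same order. Each of these rests on 1 array at 3 weeks. Aqp1 in that array was at 5491.5 in controls and 6640 in exercised hearts, above all 3-week high salt arrays.

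**Figure D4:**
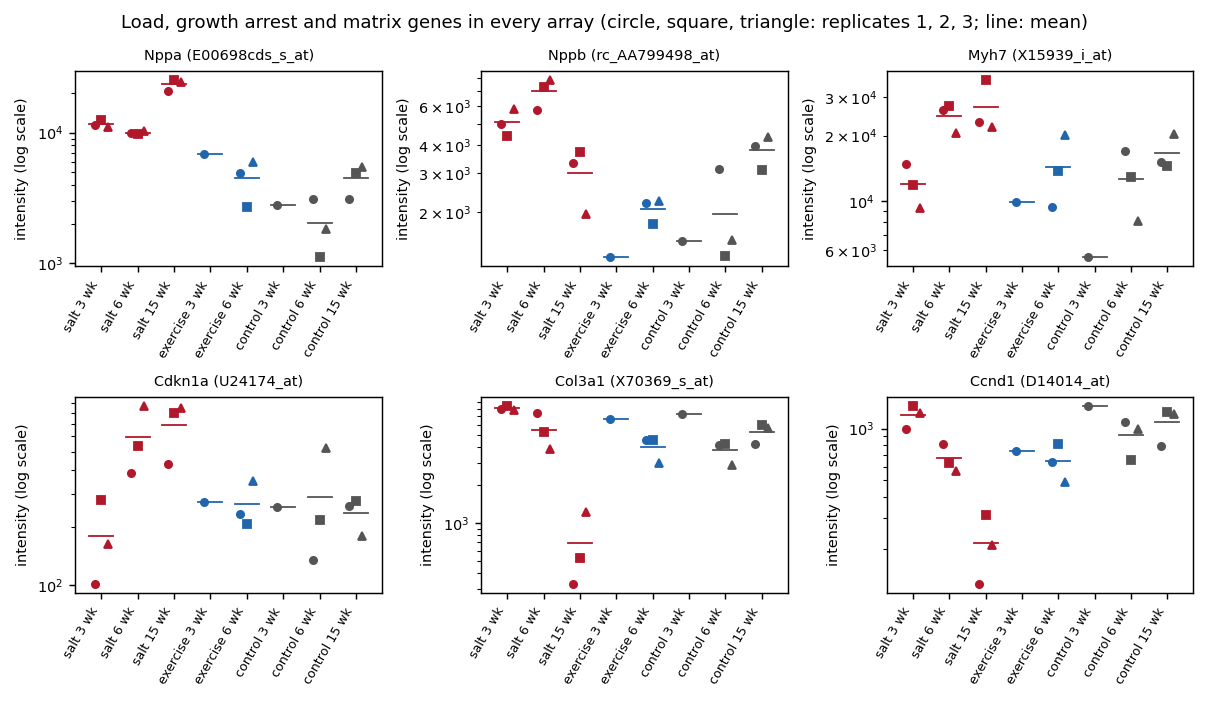
Intensity (log axis) of Nppa, Nppb, Myh7, Cdkn1a, Col3a1 and Ccnd1 in each of the 20 arrays used, drawn as for the clock genes. Nppa at 6 weeks is close to its 3-week level and is higher at 15 weeks, while Myh7 and Cdkn1a lie higher and Col3a1 and Ccnd1 lower at 6 weeks than at 3 weeks in high salt hearts.

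Genes of the extracellular matrix leaned lower at 6 weeks. Of 43 tested, 13 lay lower in all 6-week arrays, beside 6.3% of all genes, and 0 lay higher; 0 were called by limma, with 6 lower and 0 higher at an unadjusted p under 0.05 (beside 2.77% and 1.91% of all genes), and the median was -0.21. Col3a1, collagen III, was at 7349, 5197 and 3872 at 6 weeks and 7912, 8436 and 7807 at 3 weeks (-0.60 ± 0.32), and Col1a2, collagen I, was at 3247, 2159 and 1512 at 6 weeks and 3352, 3408 and 3674 at 3 weeks (-0.65 ± 0.28). In both, the first 6-week array came close to the 3-week level. Lum, a collagen-binding proteoglycan, was at -0.75 ± 0.30, Loxl1, a collagen cross-linking enzyme, at -0.92 ± 0.37, Lamc1, a basement membrane laminin chain, at -0.58 ± 0.23, and Timp3, an inhibitor of matrix proteases, at -0.68 ± 0.23. In exercised hearts the changes were -0.74 for Col3a1, -0.90 for Col1a2, -0.80 for Lum, -0.64 for Loxl1, -0.25 for Lamc1 and 0.71 for Timp3. In controls they were -0.97, 0.075, -0.050, 0.26, -0.70 and -0.45 in the same order. Lower levels at 6 weeks were thus not limited to high salt hearts, though these other changes each rest on 1 array at 3 weeks. At 15 weeks Col3a1 was at 329.8, 527 and 1209.8, or -3.06 against 6 weeks (limma, adjusted p = 9.53e-06). The 13 fibroblast markers had 4 lower and 0 higher without overlap, beside 6.3% and 5.49% of all genes; most of them are also in the matrix list, so this is not a separate count. Their summed intensity was 62660 to 74036 at 6 weeks and 57864 to 70840 at 3 weeks.

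Tcf21, a transcription factor of epicardium and cardiac fibroblasts, was in no list and was named after its values were seen. It was at 151, 54.7 and 49.8 at 6 weeks and 228, 323 and 222 at 3 weeks, without overlap (-1.32 ± 0.29, limma adjusted p = 0.156). Its level was also low at 15 weeks, at 31.6, 43.2 and 40.5.

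Cell cycle genes also had more negative than positive changes. Of 26 tested, 7 lay lower and 2 higher without overlap, beside 6.3% and 5.49% of all genes. By limma 0 were called, 4 were lower and 1 higher at an unadjusted p under 0.05, beside 2.77% and 1.91%, and the median was -0.18. Ccnd1, cyclin D1, was at 816, 632 and 564 at 6 weeks and 998, 1358 and 1234 at 3 weeks (-0.80 ± 0.27), although of its 5 tested probe sets 2 were positive. Top2a, the topoisomerase of dividing cells, was at 123, 184 and 88.6 at 6 weeks and 228, 325 and 215 at 3 weeks (-0.80 ± 0.28). Its other tested probe sets, D14045_s_at and Z19552cds_at, were at 0.044 and -0.13, both with overlap. Pcna, the clamp of DNA replication, was at 1091, 288 and 807 at 6 weeks and 1082, 1742 and 1115 at 3 weeks (-0.96 ± 0.35), where the first 6-week array overlapped. On the probe sets with intensities given, the limma adjusted p of Ccnd1, Top2a and Pcna lay between 0.861 and 0.883.

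Immediate early and stress transcription factors leaned higher. Of 32 tested, 9 lay higher without overlap, beside 5.49% of all genes, 2 lay lower, beside 6.3%, 0 were called by limma (6 higher and 2 lower at an unadjusted p under 0.05, beside 1.91% and 2.77%), and the median was 0.12. Egr1, a zinc finger factor induced within minutes of a stimulus, was at 3038, 973 and 1299.7 at 6 weeks and 811, 824 and 752 at 3 weeks (0.95 ± 0.40, limma adjusted p = 1). The first 6-week array had the highest value, and the same array was highest for Egr2 at 137, 65.2 and 41.9, and for Sgk1, a kinase induced by mineralocorticoids, at 480.3, 253 and 339. The 3-week values were 44.2, 25.9 and 28.0 for Egr2 and 179, 251 and 174 for Sgk1. Nr4a2, an orphan nuclear receptor, went the other way, at 87.6, 50.1 and 112 at 6 weeks and 137, 225 and 225 at 3 weeks (-0.94 ± 0.37). In high salt hearts the changes of Egr2 and Sgk1 were 0.67 and 0.69. Controls changed over these weeks by 0.91 for Egr1, 0.48 for Egr2, 0.60 for Sgk1 and 0.41 for Nr4a2. Exercised hearts changed by -0.048, -0.21, -0.22 and 0.16 in the same order. The rise of Egr1, Egr2 and Sgk1 was thus not limited to high salt hearts, though these other changes each rest on 1 array at 3 weeks.

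Fuel and contraction genes gave no call. Of 34 genes of fatty acid uptake and oxidation, 5 lay higher and 1 lower without overlap, beside 5.49% and 6.3% of all genes. By limma 0 were called, 2 were higher and 1 lower at an unadjusted p under 0.05, beside 1.91% and 2.77%, and the median was 0.12. Pdk4, which closes pyruvate dehydrogenase when fat is burned, was at 564, 1259.6 and 2173 at 6 weeks and 503, 547 and 478 at 3 weeks (1.13 ± 0.53), with all 6-week arrays higher but widely spread. Ucp3, a mitochondrial carrier that follows fatty acid supply, was at 261, 354 and 412 at 6 weeks and 207, 169 and 202 at 3 weeks (0.70 ± 0.25). Bdh1, which oxidises the ketone body hydroxybutyrate, was at 311, 466 and 502 at 6 weeks and 733, 644 and 659 at 3 weeks (-0.65 ± 0.29). Oxidative phosphorylation and citric acid cycle genes numbered 44, with 3 higher and 0 lower without overlap, beside 5.49% and 6.3% of all genes. Their median was 0.07, and of 28 glycolytic genes 0 separated the groups.

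Of 14 sarcomere genes tested, 1 lay higher and 0 lower without overlap, beside 5.49% and 6.3% of all genes, and the median was 0.28. The 12 ventricular myocyte markers had a median of 0.31, and 0 of them separated the groups. Of these markers, 11 had positive changes, beside 1877 of all 3828 genes. Actc1, cardiac alpha-actin, was at 0.49 ± 0.20, Tnnt2, cardiac troponin T, at 0.40 ± 0.19, and Myl2, the ventricular regulatory light chain, at 0.39 ± 0.20. Over the 22 alternatives Actc1 ranged from 0.093 to 0.76, Tnnt2 from 0.12 to 0.62 and Myl2 from -0.052 to 0.57. The lowest value of Myl2 was that under quantile normalization, so these changes depended on the processing. The median of the calcium handling genes had the other sign: of 23 tested, 4 lay lower and 0 higher without overlap, beside 6.3% and 5.49% of all genes. By limma 0 were called, 3 were lower and 1 higher at an unadjusted p under 0.05, beside 2.77% and 1.91%, and the median was -0.18. Casq1, the skeletal form of the calcium store protein calsequestrin, was at 429, 1036 and 571 at 6 weeks and 1526, 1862 and 2152 at 3 weeks (-1.47 ± 0.38, limma adjusted p = 0.541). Cacnb2, a subunit of the L-type calcium channel, was at -0.56 ± 0.21, and Calm2, a calmodulin gene, at -0.54 ± 0.21.

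Among immune lists, 4 of 38 inflammatory genes lay higher and 1 lower without overlap, beside 5.49% and 6.3% of all genes, with a median of 0.14. For the 15 genes of antigen presentation by MHC class II, 3 lay higher and 0 lower, beside the same shares, with a median of 0.22. RT1-Bb, a rat class II beta chain, was at 902, 736 and 526 at 6 weeks and 387, 471 and 476 at 3 weeks (0.63 ± 0.26), RT1-Db1 at 1035, 752 and 655 at 6 weeks and 512, 529 and 502 at 3 weeks (0.60 ± 0.26), and Cd74, their chaperone, at 0.20 ± 0.17. At 15 weeks RT1-Bb was at 146, 182 and 182, below both earlier times. Of 11 leukocyte markers 8 had positive changes, beside 1877 of all 3828 genes. Among these markers 2 lay higher and 1 lower without overlap, beside 5.49% and 6.3% of all genes, and the median was 0.14. They had a summed intensity of 7652 to 11529 at 6 weeks and 7770 to 8525 at 3 weeks. The marker that lay lower was Ptprc, the common leukocyte antigen CD45, at 156, 66.9 and 106 at 6 weeks and 171, 190.1 and 166 at 3 weeks (-0.57 ± 0.26).

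Of 39 antioxidant and xenobiotic genes, 3 lay higher and 3 lower without overlap, near the 5.49% and 6.3% of all genes. Gsta3 was at 1.06 ± 0.33 and Gsta1 at 0.82 ± 0.29, both glutathione transferases of a family whose members share sequence. Of 25 chaperone genes, 1 lay higher and 2 lower without overlap, beside the same shares. Hspa1a, an inducible HSP70, was at 504, 348 and 349 at 6 weeks and 579, 1068 and 699 at 3 weeks (-0.88 ± 0.34), Dnajb1, its HSP40 partner, was at -0.57 ± 0.21, and Hspa5, the endoplasmic reticulum chaperone BiP, was at 3705, 2071 and 2814 at 6 weeks and 1773, 1899 and 2179 at 3 weeks (0.51 ± 0.21). Hif1a, the oxygen-regulated transcription factor, was at 199.8, 264 and 151 at 6 weeks and 362, 328 and 303 at 3 weeks (-0.62 ± 0.22). None of these genes was called in limma. At an unadjusted p under 0.05 in limma, 2 antioxidant genes were higher and 0 lower, beside 1.91% and 2.77% of all genes. Beside the same 2 shares, 1 chaperone gene was higher and 2 were lower.

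Across arrays at 6 weeks, 1 gene outside the naming rule was singled out after its values were seen. Reg3b, a secreted C-type lectin known from injured pancreas and from stressed heart muscle, was at 6279, 474 and 36.8 at 6 weeks and 452, 418 and 179.7 at 3 weeks (0.78 ± 1.0, limma adjusted p = 1). The 6-week arrays spanned the whole range of the 3-week arrays and beyond. In high salt hearts at 15 weeks it was at 3862, 922 and 5264, while the exercised and control arrays lay between 12.6 and 87.2. It is 1 of the 13 tested epithelial markers, whose summed intensity was 1988 to 8434 at 6 weeks and 2017 to 2306 at 3 weeks.

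**Figure D5:**
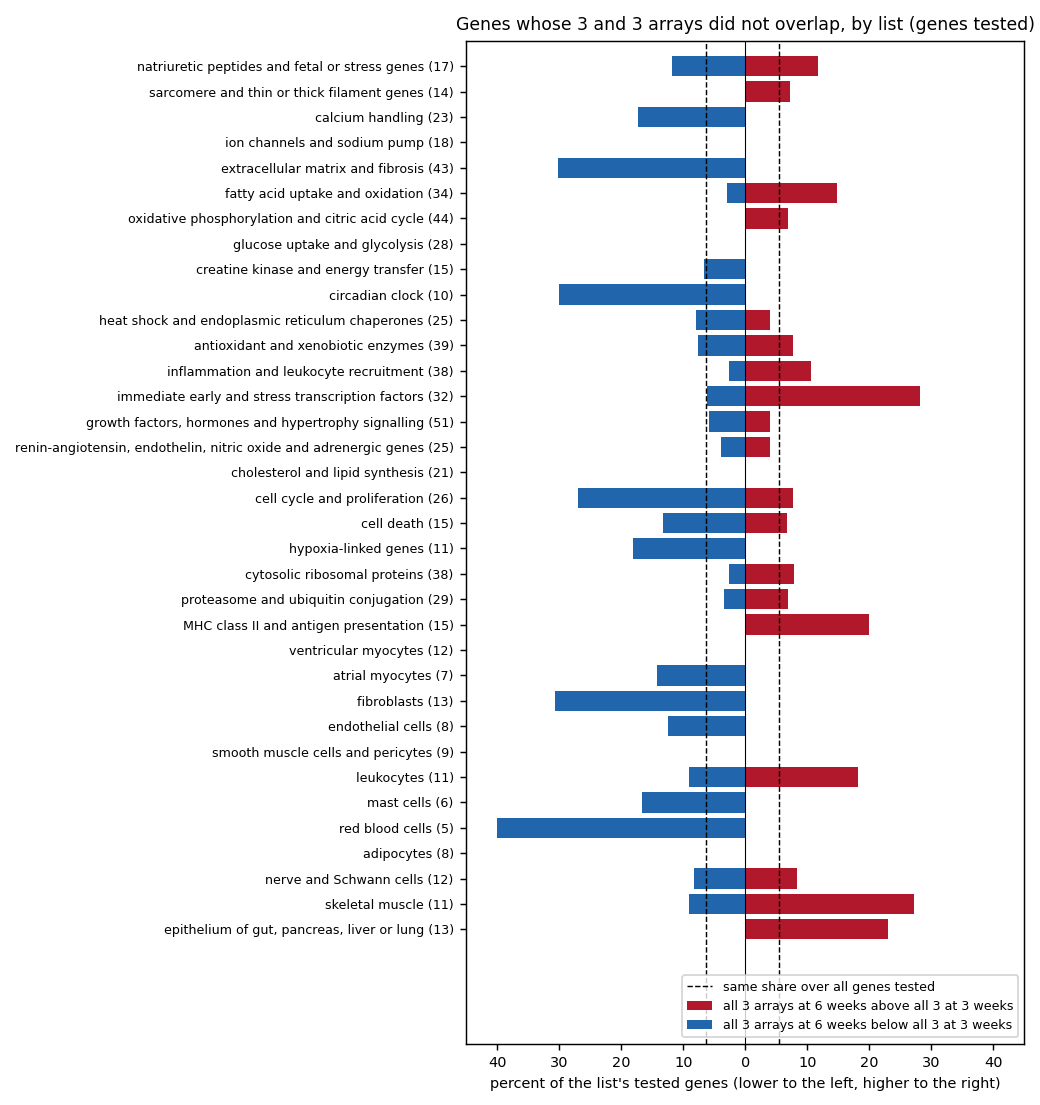
Share of each list's tested genes whose 3 arrays at 6 weeks all lay above (red, right) or below (blue, left) the 3 arrays at 3 weeks, in percent; the number of tested genes is in brackets, and dashed lines mark the share over all 3828 genes, 5.49% higher and 6.3% lower. Red blood cell, fibroblast, matrix, clock and cell cycle lists extend to the left, and immediate early and skeletal muscle lists to the right; lists with few genes move by a large share per gene.

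Whether the change in high salt hearts differed from that in the other groups was tested across all probe sets. Against the exercise change, 1 probe set passed (0.0153%), with 216 at an unadjusted p under 0.05, or 3.3%. Against the control change, 0 passed in limma, with 525 at an unadjusted p under 0.05, or 8.01%. Of the called genes, Alox15 (L06040_s_at) differed by -2.26 ± 0.60 from the exercise change and by -2.17 ± 0.60 from the control change, and Hba-a3 by -1.73 ± 0.40 and -1.97 ± 0.40; the limma adjusted p was 0.781 and 0.387 for Alox15 and 0.276 and 0.205 for Hba-a3. A p above the threshold does not show that the groups changed alike, since the exercise and the control change each have 1 array at 3 weeks and the 6-week controls had the high 3' to 5' ratios given above.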

How the data were processed

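Left ventricular RNA was measured on 24 deposited columns, groups and replicate numbers being taken from the sample titles. The deposited values are 1 linear intensity per probe set for 8799 probe sets; per the values, every column had been scaled by the authors to a 2% trimmed mean of 500.767 to 501.021. With the summary method, software and genome build not given in the sources used here, they were used as they stood. Exercise replicates 2 and 3 at 3 weeks and control replicates 2 and 3 at 3 weeks held the same 8799 values, so these 2 arrays (4 columns) were left out after this was seen; 20 arrays were used, and the design as first written, with all 24 columns, is an alternative. After removal of 59 control probe sets, log2(intensity + 40) was fitted with 1 mean per group in limma 3.58.1 (R 4.3.3; empirical Bayes with an intensity trend, 12 residual degrees of freedom). The dimmest 25% of probe sets were not tested, leaving 6555, over which p-values were adjusted by Benjamini-Hochberg. Changes are log2 fold changes of 6 over 3 weeks ± SE; the added 40 shrinks the folds of dim genes. A single array in a group is assumed to vary like the others. The number of arrays limits the precision; no detection calls were used.

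Symbols came from the platform annotation (7018 probe sets with 1 symbol, 308 with several, 1473 not listed, left unnamed). A gene was represented in its list by the brightest tested probe set (35 lists, 3828 genes). The members, lists and tests were chosen with earlier results of these data known. Named were up to 12 called genes with the largest changes in each direction without overlap, or the 8 smallest p where fewer than 5 were called, up to 4 members with the smallest p per list, and Nppa, Nppb, Acta1, Myh6, Myh7 and Atp2a2; Tcf21, Reg3b and Ptgis were added after their values were seen. The fit was tested on simulated data. Same-numbered arrays did not deviate together. Alternatives covered the normalization, pseudocounts of 10 and 160, filters, array weights, integrity ratios as covariates, the samples fitted and each array left out.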

Additional observations from a re-analysis of the deposited data

Results flagged for a closer look

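Between high salt and exercise, the change from 3 to 6 weeks differed for 1 probe set, rc_AA866237_s_at of albumin (Alb), the main plasma protein made by liver: the high salt change minus the exercise change was 3.86 (limma, adjusted p = 0.0034). The exercise change rests on 1 array at 3 weeks. The single exercised array at 3 weeks used here had an Alb intensity of 886.7, while the other 19 arrays used ranged from 13.8 to 119 with a median of 24.1. The 2 arrays deposited under both labels had 17.5 and 12.8. In the same exercised array Serpina1 (rc_AI010453_at) was at 1165 against 149 to 459 in the other 19, Ahsg (X63446_at) was at 459 against 14.7 to 103, and Apoc3 was at 429 against 61.0 to 361 and at 298 against 43.6 to 216 on its 2 tested probe sets, all also liver genes. The other tested probe sets of the liver genes looked up lay within the range of the other 19 arrays: Ttr at 514 and 729, Fgg at 159.5, Apoa1 at 149, Ahsg D10261_at at 110.2 and the Alb probe set rc_AA860062_at at 85.2. Among dim probe sets that were not tested, Alb was at 218.3 against 5.4 to 13.7 and at 155.1 against 8.2 to 46.9. Apoc3 was at 130.6 against 4.9 to 26.6 and Fgg at 78.7 against 2.7 to 57. The remaining untested probe sets of these genes lay within the range of the other 19 arrays. With the duplicated arrays read as exercise, 0 probe sets passed.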

How the results depend on the processing

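The count of 5 called probe sets between high salt hearts at 6 and 3 weeks became 8 with the pseudocount of 160, 3 when only the 6 arrays compared were fitted, 3 with only the 9 high salt arrays, and 2 with the beta-actin ratio as a covariate, an alternative chosen after seeing the data. Leaving out 1 high salt array gave 2 to 10 calls: 10, 2 and 2 without 6-week arrays 1, 2 and 3, and 4, 2 and 3 without 3-week arrays 1, 2 and 3. Alox15 (L06040_s_at) passed in all 22 alternatives; Nr1d1 (M25804_g_at) passed in 21, with an adjusted p of 0.0526 under the beta-actin covariate; Hba-a3 passed in 16, Dbp J03179_at in 16 and J03179_g_at in 14, with adjusted p up to 0.275, 0.157 and 0.205 in limma. Probe sets not called above passed in some alternatives: Nr1d1 M25804_at in 6 and Bhlhe41 in 4 of 22 (adjusted p down to 0.00441 and 0.0223), Tcf21 in 2 of 21, and Hbb-b1 (0.0377, quantile normalization), Nr1d2 and Bmal1 (without the first 6-week array) in 1 each. The replicate number as a block gave 7 calls; same-numbered deviations correlated at -0.112, -0.211 and -0.0206. The difference from exercise (1 call) gave 0 with the pseudocount of 10, with probe sets below the median left out, with the duplicated arrays as exercise, with all 24 columns and with the beta-actin covariate; it gave 3 with the pseudocount of 160, 8 without a filter, 5 with array weights and 2 with the 4 groups compared. It stayed at 1 without any 1 of the high salt arrays compared or of the exercised arrays at 6 weeks. The difference from control (0 calls) gave 41 with the duplicated arrays as controls, 61 with all 24 columns and 117 with array weights, and 0 to 25 leaving out 1 array, 25 being without control replicate 1 at 6 weeks. The cause of these shifts was not tested. No sign changed for a called gene. Uncalled values that changed sign were, under quantile normalization, Myl2 -0.052, Acta1 -0.13, Myh6 -0.036 and Slc4a1 0.017, and under the beta-actin covariate, Nppa 0.10, Acta1 -0.065, Per2 -0.36 and Slc4a1 0.13. Leaving out 1 array moved Per2 between -0.11 and 0.18, Slc4a1 between -0.18 and 0.069, Csnk1d between -0.11 and 0.24, Hlf (S79817mRNA_at) between -0.63 and 0.073, its dimmer S79820_at between -0.068 and 0.26, and Reg3b between -0.88 and 2.30. Dim probe sets near the pseudocount of 40 limit the folds of Alox15, Dbp and Bmal1.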
